A study of Sus scrofa with 42 samples.

Results

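The regulators of meiotic exit and M phase were followed in single blastomeres of pig embryos, which arose either from in vitro fertilization (IVF) or from parthenogenetic activation without sperm (PA). They comprised the oocyte kinases MOS and WEE2, the B-type cyclins CCNB1 and CCNB2 with their kinase CDK1, the APC/C activator CDC20 and the securin PTTG1, and the mitotic kinases PLK1, AURKA and AURKB. Of these, 8 rows of the 15351 in the expression table were found by gene name or by gene identifier, PTTG1 under ENSSSCG00000017032. CDK1 and AURKA carried no name in the table and were taken from rows ENSSSCG00000010214, by the identifier in the RefSeq-based name table, and ENSSSCG00000007493, by its position, which gave 10 genes in all. The table's row for CDK1 runs from 64233816 to 64315526 on chromosome 14, past the RefSeq end of the gene at 64255290, so its values may hold other transcripts.

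A mature oocyte waits in metaphase of the second meiotic division with high activity of CDK1 bound to cyclin B. MOS, a kinase upstream of MAPK, is part of the cytostatic factor that keeps this arrest, whereas WEE2, the oocyte form of WEE1, phosphorylates and restrains CDK1 and is known for its role in leaving metaphase. Exit requires the anaphase-promoting complex (APC/C) with CDC20, which marks cyclin B and securin for degradation, and PLK1 and the Aurora kinases then run the spindle and the mitoses of cleavage. Much of this machinery is built from RNA stored in the oocyte, whose use and loss are controlled in part through short elements near the 3′ end.

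The study sequenced 42 cells of 20 embryos in 8 groups, IVF and PA at the 1-, 2-, 4- and 8-cell stages, collected 19, 27, 48 and 72 h after the end of sperm incubation or after the electric pulse. The oocytes came from slaughterhouse gilts and were matured in vitro, and the fertilized embryos carried a sperm genome whereas the parthenotes did not. PA oocytes were also held in 6-dimethylaminopurine, an inhibitor of protein kinases, and in cytochalasin B, which blocks extrusion of the polar body, so the method of activation and these agents cannot be told apart. Each 1-, 2- and 4-cell group held 3 embryos, whereas each 8-cell group held 3 blastomeres of 1 embryo. The embryo, with the mean of its blastomeres, was the replicate, and since the labels do not say which animals the oocytes came from, p-values measure the spread between these embryos. Values are FPKM, fragments scaled to gene length and to the mapped fragments of the cell.

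PA 4-cell blastomeres 1-4 and 2-1 nearly repeated the values of PA 2-cell blastomeres 1-2 and 2-1 (Pearson's r of log2 values 0.9985 and 0.9988, against at most 0.9079 in any other pair of cells), so results that rest on PA 4-cell embryos are given with and without them. Which label of each pair is right is not known, and the 2-cell blastomeres were not left out as repeats. Reads recovered on genes ranged from 3672583 to 12854032 per cell. Mitochondrial genes took from 6.07% of the summed FPKM to 63.0%, with 6.07% to 19.2% in IVF 1-cell and 26.9% to 53.6% in IVF 8-cell cells. Of 8 oocyte markers, 7 were in the table, and their summed level was 187 to 701 FPKM in 1-cell embryos and 0.853 to 79.6 FPKM in 8-cell blastomeres. In 4-cell blastomeres it ranged from 6.96 to 781 FPKM after IVF and from 234 to 1332 FPKM after PA. KPNA7 and BMP15 reached 1 FPKM in 36 cells each, GDF9 in 34, ZP2 in 27, OOEP in 15, ZP3 in 10 and ZAR1 in 4. Of 10 cumulus cell markers, 6 were in the table, with a sum of at most 32.3 FPKM in any cell. VCAN reached 1 FPKM in 27 cells, STAR in 20, HAS2 in 4 and CYP19A1 in 3, whereas TNFAIP6 and LHCGR stayed below 1 FPKM in all 42 cells. Of 5 sperm markers only AKAP4 was in the table, at 1 FPKM or more in 2 cells.

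The 3′ ends and the upstream windows of these genes were searched in the Sscrofa11.1 genome with RefSeq gene models, to show which of them hold letters known from stored maternal RNA or from cell-cycle genes. The cytoplasmic polyadenylation element, TTTTAT or TTTTAAT on the sense strand, stood in the last 150 bases of the longest 3′ UTR of 2 of the 8 members whose 3′ UTR was long enough, WEE2 and CCNB1, against 23.4% of 16207 genes, and WEE2 held 2 of them. PTTG1 and AURKB had shorter 3′ UTRs of 80 and 136 bases and were not searched. The site nearest the transcript end is shown for each, 5′ to 3′, with the element in capitals. The WEE2 site lies at chr18:8171135-8171164 on the minus strand and starts 28 bases from the end, and the CCNB1 site lies at chr16:47348308-47348337 on the plus strand and starts 74 bases from the end.
WEE2: aggtTTTTATcttgtccaaagccaaataga
CCNB1: agaaTTTTAATttatattcaaaacctaatt

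In the 250 bases upstream of the start of each gene in the expression table, CCAAT (or ATTGG, its reverse) was found in 7 of the 10 genes, against 31.7% of 14920 genes. The cell cycle genes homology region (CHR), TTTGAA or TTCAAA, was found in CDC20 and PLK1, against 13.5% of all genes, and both motifs together stood in 4.83% of all genes. No bases were shared by the motifs found. The windows of CDC20 and PLK1, which held both motifs, are shown 5′ to 3′ on the gene's strand with the motifs in capitals. They lie at chr6:167890576-167890825 and chr3:22549438-22549687, both on the minus strand. By the RefSeq models the windows of PLK1, WEE2 and AURKB lie wholly inside the gene, whose RefSeq start is farther upstream, and 12 of the 250 bases of the CDC20 window do. Such a match describes these letters and no binding was measured.
CDC20: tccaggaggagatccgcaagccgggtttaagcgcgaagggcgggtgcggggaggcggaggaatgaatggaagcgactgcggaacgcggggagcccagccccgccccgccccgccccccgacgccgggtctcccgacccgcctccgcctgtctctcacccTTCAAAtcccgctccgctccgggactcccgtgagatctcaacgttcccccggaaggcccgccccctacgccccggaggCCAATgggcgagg
PLK1: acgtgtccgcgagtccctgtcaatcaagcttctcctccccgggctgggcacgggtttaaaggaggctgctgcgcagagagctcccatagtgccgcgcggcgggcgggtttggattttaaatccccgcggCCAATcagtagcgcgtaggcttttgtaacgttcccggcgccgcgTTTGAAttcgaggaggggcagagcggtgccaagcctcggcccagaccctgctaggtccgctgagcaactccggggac

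WEE2, PTTG1 and CCNB1 were abundant in the early embryos and low in the 8-cell embryos of both methods, and MOS was lost from most blastomeres already at the 4-cell stage. In the comparison of 8-cell with 1-cell embryos, 5 of the 10 genes fell after IVF and 4 fell after PA, where 8.23% and 6.21% of the 8116 tested genes were called lower (limma, adjusted p below 0.05 and at least 2-fold). In the step from the 4- to the 8-cell stage, 2 members fell after IVF, against 3.25% of tested genes, and 3 fell after PA, against 3.18%. In PA embryos 1 member fell in this step and 3 fell from the 1-cell stage without the repeated cells. Of the 8116 tested genes, 132 and 399 were then called lower, respectively. None of the 10 was called higher in these 4 comparisons, where 6.03%, 7.58%, 3.72% and 6.81% of the tested genes were, respectively. Their median log2 difference from the 1-cell stage was -2.16 after IVF and -3.43 after PA, beside -0.77 and -0.58 over all tested genes. Each of these tests takes the spread of the lone 8-cell embryo from the other groups.

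**Figure D1:**
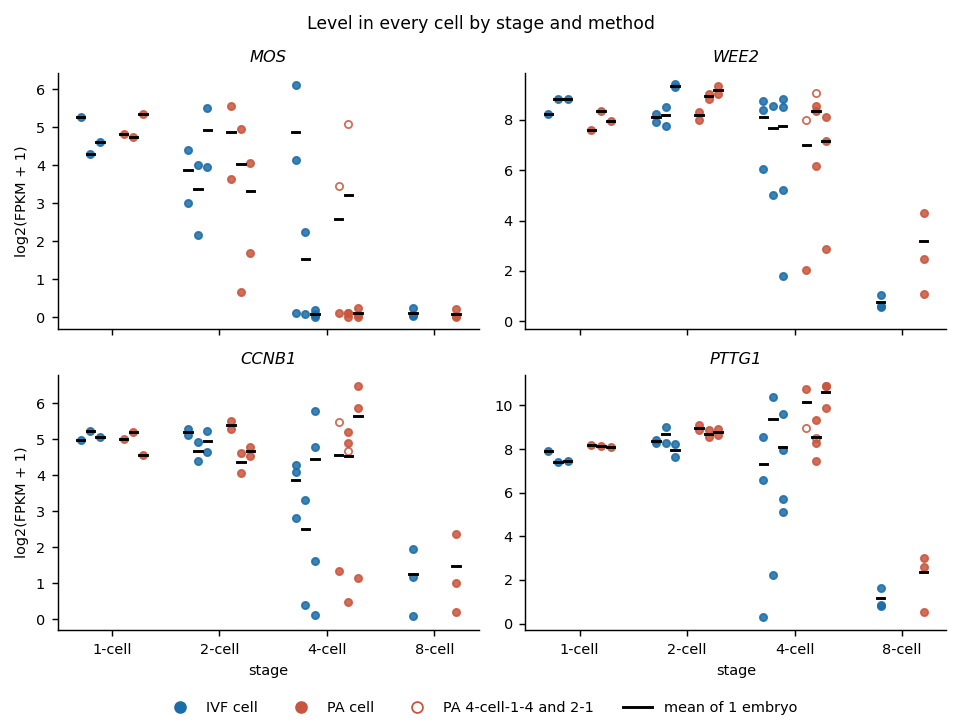
Level of MOS, WEE2, CCNB1 and PTTG1 in every cell, as log2(FPKM + 1), by stage and method, with each column of points 1 embryo and each black line its mean. The 8-cell blastomeres lay below every 1- and 2-cell cell for all 4 genes, whereas the 4-cell blastomeres spread widely, for PTTG1 from 0.223 to 1888 FPKM, beyond both. The open points mark the PA 4-cell blastomeres that nearly repeat 2-cell ones.

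WEE2 (chr18:8171138-8195957, minus strand) stood at 299, 452 and 451 FPKM in the 3 IVF 1-cell embryos, at 274, 291 and 655 in the IVF 2-cell embryos and at 278, 204 and 215 in the IVF 4-cell embryos. The IVF 8-cell embryo held 0.697 FPKM, with 0.495, 1.09 and 0.505 in its blastomeres, from 10 to 58 reads each. PA embryos held 191, 325 and 246 FPKM at the 1-cell stage, 289.6, 492 and 582 at the 2-cell stage, 129, 326 and 142 at the 4-cell stage and 8.09 at the 8-cell stage. Without the repeated cells the PA 4-cell embryos held 3.13, 256 and 142 FPKM. The IVF 8-cell embryo lay below all others, and the PA 8-cell embryo below all but the PA 4-cell embryo with 1 blastomere left. On the log2(FPKM + 1) scale WEE2 fell by 7.86 (SE 0.69, limma adjusted p = 5.97e-07) from the IVF 1-cell to the 8-cell embryos, and the PA difference was -4.78 (SE 0.69, adjusted p = 0.000154). From the 4-cell stage it fell by 7.09 (SE 0.69, adjusted p = 2.44e-06) after IVF, and the PA difference was -4.33 (SE 0.69, adjusted p = 0.000407). Without the repeated cells the latter was -2.55 with an adjusted p of 0.363, with embryo 1 at 3.13 FPKM from the single blastomere left. The difference between IVF and PA in this step, -2.76 (SE 0.97), had an adjusted p of 0.15, or -4.54 with an adjusted p of 0.272 without the repeated cells.

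MOS (chr4:75739402-75741076, plus strand) was present at 18.7 to 39.5 FPKM in the 6 1-cell embryos and at 8.95 to 29.4 FPKM in the 6 2-cell embryos. At the 4-cell stage the IVF embryos held 28.3, 1.92 and 0.0644 FPKM and the PA embryos 4.98, 8.31 and 0.084 FPKM. All PA 4-cell MOS above 1 FPKM came from the repeated cells, at 9.88 and 33.1 FPKM, and without them the 3 PA 4-cell embryos held 0.0768, 0.0547 and 0.084 FPKM. The 6 8-cell blastomeres held 0 to 5 reads of MOS each, in a depth where 3 reads are 0.0512 to 0.179 FPKM. MOS fell by 4.61 (SE 1.41, limma adjusted p = 0.0343) from 1- to 8-cell IVF embryos and by 4.89 (SE 1.41, adjusted p = 0.0269) in PA embryos on the log2(FPKM + 1) scale. The IVF call did not hold without 1-cell embryo 1, 2 or 3 (adjusted p = 0.0753, 0.0564 and 0.0652), nor did the PA call without 1-cell embryo 1 or 3 (adjusted p = 0.0503 and 0.0618). Without the filter on low values both were lost (adjusted p = 0.06 and 0.0591), and the IVF call was lost with a pseudocount of 5 (adjusted p = 0.0592). From the 2- to the 4-cell stage MOS was not called, with -2.11 (SE 1.00, adjusted p = 0.454) in PA embryos, but without the repeated cells the difference was -3.98 with an adjusted p of 0.0109. Leaving out IVF 4-cell embryo 1, which held the highest level, gave -3.24 (adjusted p = 0.0288) after IVF.

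CCNB1 (chr16:47338072-47349846, plus strand), the main B-type cyclin, kept a narrow level of 22.9 to 36.4 FPKM in the 1-cell and 19.6 to 41.3 FPKM in the 2-cell embryos. At the 4-cell stage IVF embryos held 13.6, 4.66 and 20.8 FPKM, all below the IVF 2-cell embryos, a separation seen in 20.3% of tested genes. PA embryos held 22.8, 22.4 and 49.2 FPKM, or 1.52, 21.7 and 49.2 without the repeated cells. The 8-cell embryos held 1.42 FPKM after IVF and 1.78 FPKM after PA. CCNB1 fell by 3.82 (SE 0.84, limma adjusted p = 0.00489) from 1- to 8-cell IVF embryos and the PA difference was -3.45 (SE 0.84, adjusted p = 0.00997). The fall from the 4-cell stage was called in PA embryos at -3.45 (SE 0.84, adjusted p = 0.0116) and not in IVF embryos at -2.33 (SE 0.84, adjusted p = 0.111). Without the repeated cells both PA calls were lost, with adjusted p of 0.0682 from the 1-cell and 0.309 from the 4-cell stage. The latter was also lost when log2 values were averaged over blastomeres (-2.72, adjusted p = 0.0636). From the 2- to the 4-cell stage the IVF difference was -1.35 (SE 0.59, adjusted p = 0.243).

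CCNB2 (chr1:112907049-112942219, minus strand), the other B-type cyclin, varied more between embryos. It held 10.5, 40.9 and 35.3 FPKM in IVF 1-cell embryos and 28.6, 3.14 and 14.2 in IVF 2-cell embryos. PA embryos held 7.37, 22.1 and 5.14 FPKM at the 1-cell and 0.106, 12.8 and 7.52 at the 2-cell stage. IVF 4-cell embryos still held 6.06, 9.64 and 8.89 FPKM, whereas PA 4-cell embryos held 0.164, 2.24 and 0.0535 FPKM, and 0.021, 0.0204 and 0.0535 FPKM without the repeated cells. The 6 8-cell blastomeres held 0 or 1 read of CCNB2 each. CCNB2 fell by 4.66 (SE 1.35, limma adjusted p = 0.0265) from 1- to 8-cell IVF embryos, a call that was lost without IVF 1-cell embryo 2 or 3 (adjusted p = 0.0729 and 0.0677) and with the embryo number fitted as a replicate block (adjusted p = 0.0544). In PA embryos the difference was -3.40 (SE 1.35, adjusted p = 0.106). At the 4-cell stage CCNB2 did not overlap between the methods, as 12.7% of tested genes did not, with a difference of IVF from PA of 2.52 (SE 0.96, adjusted p = 0.23), or 3.13 with an adjusted p of 0.0666 without the repeated cells.

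CDK1, the kinase of both cyclins, went the other way in level, although no comparison passed the test. PA 1-cell embryos held 0.0914, 0.892 and 0.96 FPKM and PA 2-cell embryos 0.359, 2.66 and 0.00977, whereas IVF embryos held 2.64 to 4.69 at the 1-cell and 3.14 to 8.24 at the 2-cell stage. The 4-cell embryos held 0.693, 14.4 and 3.33 FPKM after IVF and 0.271, 5.52 and 3.07 after PA, or 0, 5.79 and 3.07 without the repeated cells. The 8-cell embryos held 15.2 FPKM after IVF and 16.0 after PA, and 5 of their 6 blastomeres were at 4.61 FPKM or more. Against the 1-cell stage the difference was 3.41 (SE 1.22, limma adjusted p = 0.0696) in PA and 1.93 (SE 1.22, adjusted p = 0.305) in IVF embryos. The PA value passed the test with a pseudocount of 5 (adjusted p = 0.0485), when the embryo number was fitted as a block (adjusted p = 0.0301) and without IVF 4-cell embryo 1 (adjusted p = 0.0403) or 2 (adjusted p = 0.0341). Every IVF embryo lay above every PA embryo at the 1- and at the 2-cell stage. The methods did not overlap in 17.9% of tested genes at the 1-cell stage, in 15.6% at the 2-cell stage and in 2.64% at both in the same direction. The CDK1 differences, 1.42 (SE 0.86, limma adjusted p = 1) and 1.81 (SE 0.86, adjusted p = 0.903), were not called. Over the 1-, 2- and 4-cell stages the difference of IVF from PA was 1.27 (SE 0.50, adjusted p = 0.273), and 1.30 (adjusted p = 0.205) without the repeated cells.

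PTTG1 (chr16:63104778-63113151, minus strand) holds the cohesin-cutting protease separase inactive until anaphase. It had the highest group mean of the 10 in PA 1-cell embryos and in the 4-cell embryos of both methods. It stood at 242, 168 and 173 FPKM in IVF 1-cell embryos, at 327, 408 and 247 in IVF 2-cell embryos, and at 157, 672 and 275 in IVF 4-cell embryos. PA embryos held 287, 277 and 274 FPKM at the 1-cell stage, 504, 418 and 439 at the 2-cell stage, and 1124, 372 and 1567 at the 4-cell stage, or 1751, 373 and 1567 without the repeated cells. Every PA embryo lay above every IVF embryo at the 1- and at the 2-cell stage, where the differences of IVF from PA, -0.54 (SE 0.54, limma adjusted p = 1) and -0.50 (SE 0.54, adjusted p = 0.985), were not called. Such a separation was seen in 17.9% of tested genes at the 1-cell and in 15.6% at the 2-cell stage. At both stages, in the same direction, it was seen in 2.64%. The PTTG1 groups overlapped at the 4-cell stage. The 8-cell embryos then held only 1.24 FPKM after IVF and 4.13 FPKM after PA. From the 4- to the 8-cell stage PTTG1 fell by 7.10 (SE 0.77, limma adjusted p = 6.5e-06) after IVF on the log2(FPKM + 1) scale, and the PA difference was -7.41 (SE 0.77, adjusted p = 5.61e-06). From the 1-cell stage the differences were -6.42 (SE 0.77, adjusted p = 1.68e-05) after IVF and -5.77 (SE 0.77, adjusted p = 7.59e-05) after PA. Without the repeated cells all 4 of these calls remained, with adjusted p of at most 0.000273. The difference of IVF from PA at the 4-cell stage was -1.50 (SE 0.54, adjusted p = 0.212), and -0.84 (SE 0.31, adjusted p = 0.248) over the 1-, 2- and 4-cell stages. They were -1.71 (adjusted p = 0.118) and -0.92 (adjusted p = 0.19) without the repeated cells.

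CDC20 (chr6:167882744-167890575, minus strand) was detected in few cells, at 1 FPKM or more in 4 of 6 1-cell embryos, in 4 of 12 2-cell, 7 of 16 4-cell (the repeated cells left out) and 1 of 6 8-cell blastomeres. Embryo means reached 35.7 FPKM in IVF 4-cell embryo 2 and 16.6 FPKM in the PA 8-cell embryo, where 1 blastomere held 49.9 FPKM and the others 0 and 0.00529. No comparison of CDC20 passed the test. Its row lies wholly within ELOVL1, a fatty acid elongase gene on the opposite strand, and Pearson's r between both genes over the 42 cells, which share library and depth, was 0.93. Strand is not stated for the counting, so reads of CDC20 and of ELOVL1 cannot be told apart.

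**Figure D2:**
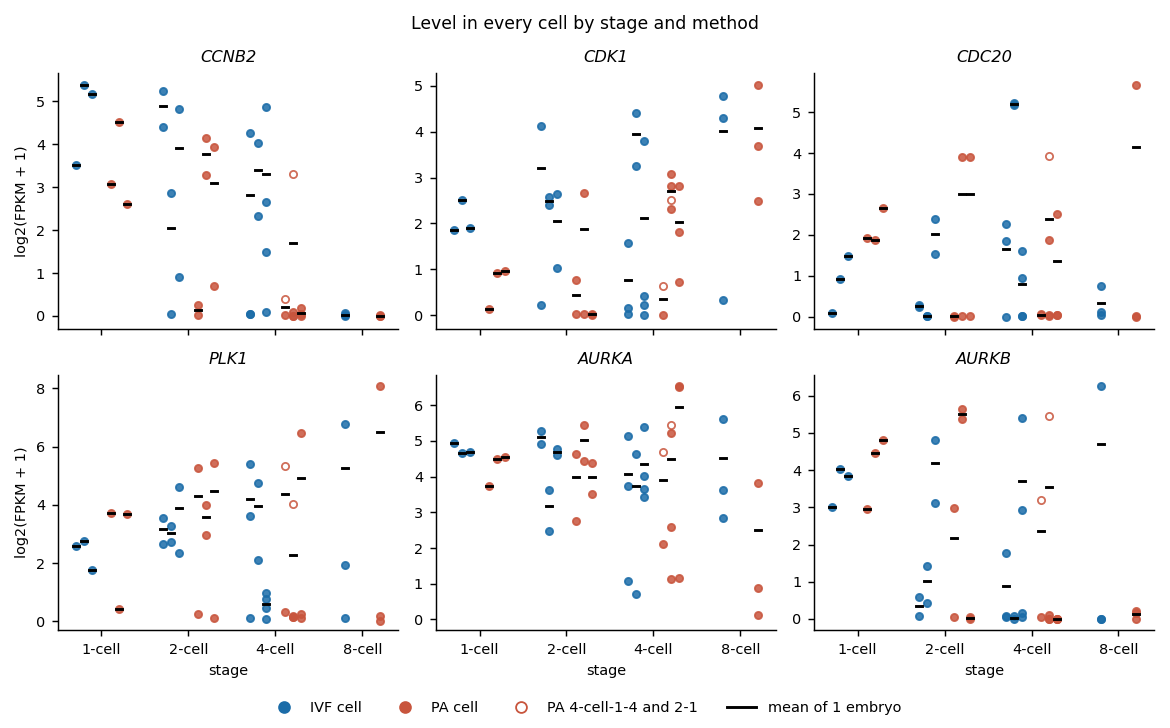
Level of CCNB2, CDK1, CDC20, PLK1, AURKA and AURKB in every cell, as log2(FPKM + 1), by stage and method, with each column of points 1 embryo and each black line its mean. Blastomeres of 1 embryo spread widely, as in the 8-cell embryos, where PLK1 ranged from 0 to 268 FPKM, and the open points mark the PA 4-cell blastomeres that nearly repeat 2-cell ones.

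None of the mitotic kinases was called lower or higher at the 8-cell stage. PLK1 (chr3:22538132-22549437, minus strand) held 4.97, 5.85 and 2.40 FPKM in IVF 1-cell embryos and 12.2, 0.352 and 11.8 in PA 1-cell embryos. The 8-cell embryos held 37.3 FPKM after IVF and 89.3 FPKM after PA, each carried by 1 of 3 blastomeres, at 109 FPKM (4663 reads) and 268 FPKM (17010 reads), while the other 4 blastomeres held 0 to 2.81 FPKM. The difference of the PA 8-cell from the 1-cell embryos was 3.89 (SE 1.40, limma adjusted p = 0.072), and 2.89 (SE 1.40, adjusted p = 0.175) in IVF embryos. The PA value passed the test without IVF 4-cell embryo 3 (adjusted p = 0.0383) and with a pseudocount of 5 (adjusted p = 0.0257). The 2-cell embryos held 7.14 to 21.3 FPKM, and the 4-cell embryos 17.5, 14.6 and 0.519 after IVF and 19.7, 3.91 and 29.4 after PA, or 0.26, 0.118 and 29.4 without the repeated cells. At the 4-cell stage PLK1 was at 1 FPKM or more in 5 of 16 blastomeres, the repeated cells left out, against 10 of 12 at the 2-cell stage.

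AURKA (chr17:56950644-56972798, minus strand), which acts at the spindle poles, was the most evenly detected of the mitotic kinases, at 12.3 to 29.6 FPKM in 1-cell and 7.97 to 33.5 FPKM in 2-cell embryos. The 4-cell embryos held 12.2 to 19.4 FPKM after IVF and 14.0, 21.5 and 61.3 after PA, or 3.30, 14.3 and 61.3 without the repeated cells, and the 8-cell embryos 22.0 after IVF and 4.69 after PA. The difference between the 8- and the 4-cell stage was -2.28 (SE 0.92, limma adjusted p = 0.148) in PA embryos, and -1.49 (adjusted p = 0.644) without the repeated cells. Its row overlaps CSTF1 by 558 bases and FAM210B by 2718 bases on the opposite strand, with r over cells of -0.008 and 0.13. AURKB (chr12:53410969-53415427, minus strand), the kinase of the chromosomal passenger complex, was detected at 1 FPKM or more in all 6 1-cell embryos but in 6 of 12 2-cell, 3 of 16 4-cell (the repeated cells left out) and 1 of 6 8-cell blastomeres. The 1-cell embryos held 6.75 to 27.1 FPKM. In the IVF 8-cell embryo 1 blastomere held 75.4 FPKM from 779 reads and the others none, so the embryo mean of 25.1 FPKM came from a single cell. Against the 1-cell stage, the difference in PA embryos was -3.95 (SE 1.85, adjusted p = 0.178) and in IVF embryos 1.08 (SE 1.85, adjusted p = 0.726).

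**Figure D3:**
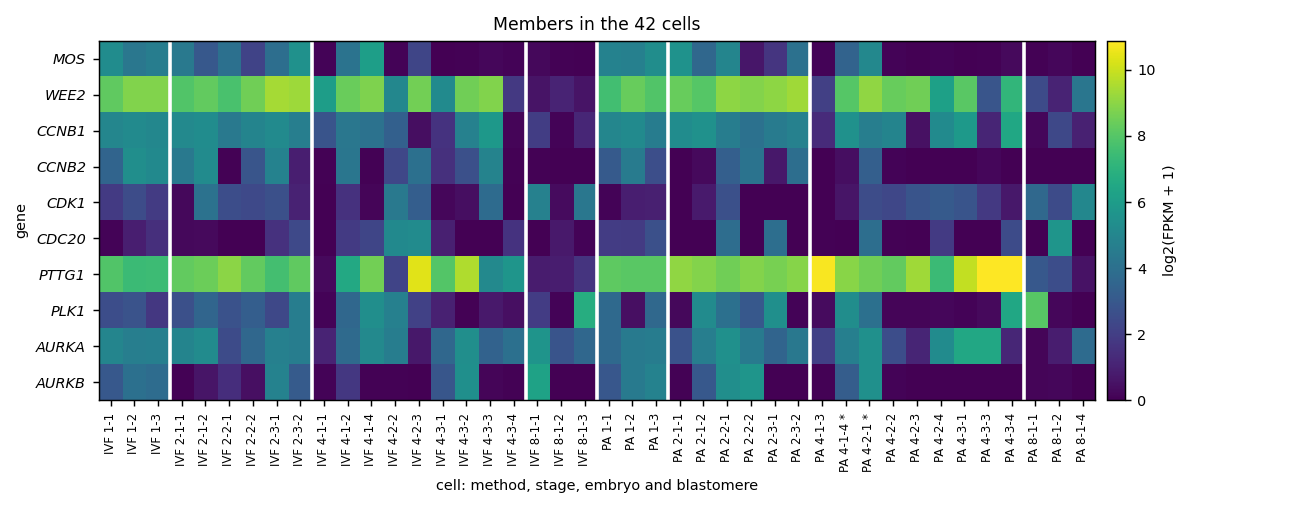
Level of the 10 genes (rows) in the 42 cells (columns, named by method, stage, embryo and blastomere), as log2(FPKM + 1), with white lines between groups and asterisks at the PA 4-cell blastomeres that nearly repeat 2-cell ones. WEE2, CCNB1 and PTTG1 were at 1 FPKM or more in all 18 1- and 2-cell cells, and CCNB2 and MOS were below 1 FPKM in all 6 8-cell blastomeres.

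On the FPKM scale, the blastomeres of 1 embryo differed more in WEE2, CCNB1 and PTTG1 at the 4-cell than at the 2-cell stage. For WEE2, the mean absolute log2 difference between blastomeres of an embryo had a median of 0.31 over the 6 2-cell embryos and of 3.49 over the 5 4-cell embryos with at least 2 blastomeres, the repeated cells left out. The same medians were 0.40 and 3.14 for CCNB1 and 0.30 and 2.60 for PTTG1, beside 0.62 and 0.42 for the median of all 8116 tested genes. The ranges over embryos did not overlap for WEE2 (0.12 to 0.75 against 1.57 to 4.07) or for CCNB1 (0.19 to 0.58 against 0.98 to 3.56), and overlapped for PTTG1 (0.14 to 0.73 against 0.68 to 8.17). Such a separation, with all 4-cell embryos above all 2-cell embryos, was seen in 2.39% of tested genes. These differences were not recomputed under the median-ratio scaling given below, whose factors also differed between blastomeres of 1 embryo. In embryo 3 they were 3.69 and 3.51 at the IVF 2-cell and 0.334, 1.57, 2.28 and 0.763 at the IVF 4-cell stage. In PA embryo 3 they were 1.89 and 2.23 at the 2-cell and 0.709, 0.0389 and 0.168 at the 4-cell stage. How much of the spread follows the scaling was not tested. In IVF 4-cell embryo 3, WEE2 was at 36.1, 365, 455 and 2.46 FPKM in the 4 blastomeres, and PTTG1 at 248, 767, 34.2 and 50.6. In IVF 4-cell embryo 1, blastomere 1 held 65.1 FPKM of WEE2 but 0.223 FPKM of PTTG1, and blastomere 4 held 432 and 375 FPKM. In embryo 3 the blastomeres that were highest and lowest for WEE2 were not those for PTTG1, whereas in embryo 1 they were. The 2- and 4-cell medians were 1.64 and 2.63 for PLK1, 0.94 and 2.73 for AURKA and 0.45 and 1.24 for CDC20. They were 1.18 and 1.17 for CDK1, 1.83 and 1.70 for CCNB2, 1.87 and 0.17 for MOS and 0.75 and 0.075 for AURKB.

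**Figure D4:**
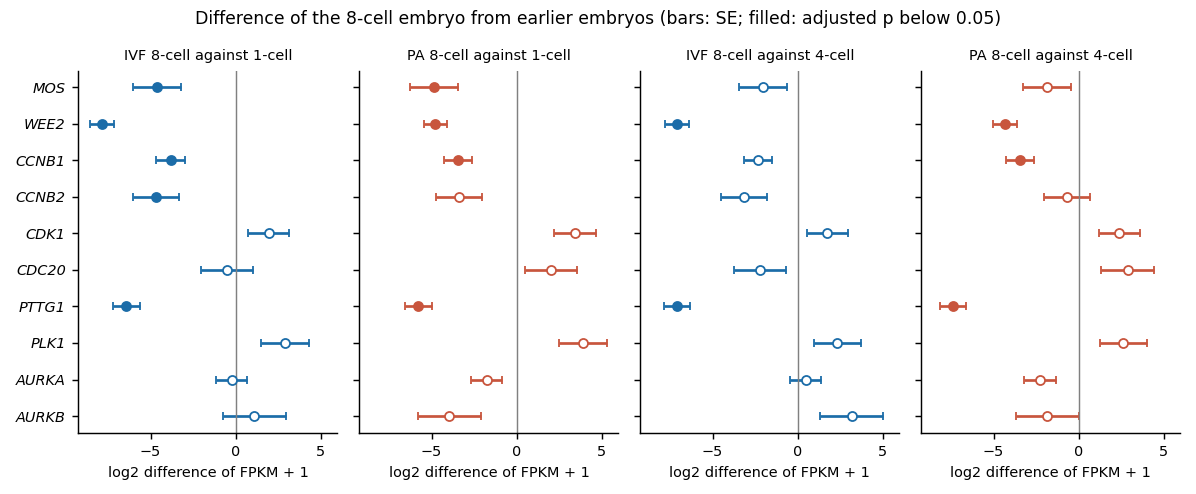
Difference of the 8-cell embryo from the 1-cell and the 4-cell embryos for each gene, on the log2(FPKM + 1) scale, with the SE of the limma fit as bars and filled points for adjusted p below 0.05. WEE2 and PTTG1 were filled on the left of 0 in all 4 panels, while CDK1 and PLK1 lay on the right of 0 and were open in all of them.

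How far these falls depend on the scaling was measured by dividing each cell by its median ratio over 1064 nuclear genes. These factors were 3.09 to 4.17 in IVF 1-cell and 0.257 to 0.786 in IVF 8-cell cells, and 2.57 to 2.88 and 0.104 to 1.89 in PA cells. The median of all genes from the 1- to the 8-cell stage moved from -0.77 to -0.06 after IVF and from -0.58 to -0.10 after PA. The calls of all genes moved from 489 higher and 668 lower to 1501 and 114 after IVF, and from 615 and 504 to 1709 and 111 after PA. From the 4- to the 8-cell stage they moved from 302 and 264 to 1000 and 159 after IVF, and from 553 and 258 to 1207 and 324 after PA. Under this scaling WEE2 and PTTG1 still fell from the 4-cell stage, with differences of -5.86 and -5.73 after IVF and -3.53 and -7.08 after PA. From the 1-cell stage WEE2 after IVF alone was still called lower, at -5.30, while the CCNB1 difference was -0.65 after IVF and 0.011 after PA. CDK1 and PLK1 were then called higher, by 4.95 and 5.96 after IVF and by 5.51 and 8.06 after PA, and CDC20 by 5.75 after PA. From the 4-cell stage AURKB was then called higher by 5.27 after IVF, and CDC20 and PLK1 by 4.93 and 5.66 after PA. With nuclear genes rescaled to an equal total, 5 and 4 members were called from the 1-cell stage and 2 and 3 from the 4-cell stage, all lower, as without rescaling. Of all genes, 617 and 519 were then called lower from the 1-cell stage and 272 and 287 from the 4-cell stage.

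No member was called between the 1- and the 2-cell stage, where 0% of tested genes were called after IVF and 0.0986% after PA. Between the 2- and the 4-cell stage none was called after IVF, against 1.11% of genes, or after PA, against 0.394%. At an unadjusted p below 0.05 the numbers of members were 0 and 0 in the earlier step and 1 and 2 in the later one. Of the 8116 tested genes, 216 and 394 reached this in the earlier step and 1432 and 873 in the later one. IVF and PA embryos were not called different in any member at the 1-, 2- or 4-cell stage or over these stages, where 0.0493%, 0%, 0.554% and 0.037% of genes were called. At an unadjusted p below 0.05, 0, 1, 3 and 3 members differed between the methods in these comparisons. Among the 8116 tested genes, 332, 441, 1134 and 1182 did so. The interaction of method with the step from the 4- to the 8-cell stage was called in none, against 2.86% of genes. An unadjusted p below 0.05 was seen for 3 members and for 1175 of the 8116 tested genes. For the earlier steps this interaction was called in 0 members and 0% of genes. No member had an unadjusted p below 0.05 there, whereas 227 and 434 of the tested genes had.

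The balance of partners was compared between 4- and 8-cell and 1- and 2-cell embryos by an exact permutation test over embryos, 2-sided, with p adjusted over 6 ratios. In PA embryos the log2 ratio of WEE2 to CDK1, each with 1 FPKM added, was 7.64 ± 0.80 (SD, n = 6) in early and 4.14 ± 3.42 (SD, n = 4) in later embryos. The difference of -3.50 had an exact p of 0.00476, the smallest that 210 assignments allow, and an adjusted p of 0.0286. Early PA embryos ranged from 6.98 to 9.17, the 4-cell embryos stood at 6.68, 5.65 and 5.14, and the 8-cell embryo at -0.90, so no early and later values overlapped. The difference was -4.76 without the repeated cells. With a pseudocount of 0.1 it was -4.52 and no longer passed, and without the lone 8-cell embryo it was -1.82, where 84 assignments cannot reach the threshold. In IVF embryos it was -2.88 (exact permutation p = 0.1, adjusted p = 0.3), with the 8-cell embryo at -3.26 and IVF 4-cell embryo 1 at 7.36, above the early embryos. The ratios of CCNB1 to CCNB2 and of AURKA to AURKB had exact permutation p of 0.738 and 0.967 in IVF embryos and of 0.205 and 0.21 in PA embryos, with adjusted p of at least 0.314.

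Over the 20 embryos, the gene whose log2(FPKM + 1) followed WEE2 most closely among 8115 genes was BTG4, an adaptor of mRNA decay in oocytes, with Pearson's r of 0.97. BBOX1 was closest to MOS (r = 0.92), SLAIN2 to CCNB1 (0.93), NFXL1 to CCNB2 (0.89), ARHGAP18 to PTTG1 (0.94) and ELOVL1 to CDC20 (0.93). The closest genes to CDK1, PLK1, AURKA and AURKB reached lower values of 0.83 (ENSSSCG00000000377), 0.72 (CCNT1), 0.79 (ARID1A) and 0.78 (FOXK2). With the repeated cells left out r was 0.81 for CCNB1, 0.64 for PLK1 and 0.62 for AURKB, and 0.82 to 0.93 for the other members but AURKA, at 0.81. Among the members, WEE2, CCNB1 and PTTG1 followed each other, with r of 0.82 for WEE2 and PTTG1, 0.81 for WEE2 and CCNB1 and 0.77 for CCNB1 and PTTG1. CDK1 ran against them, with r of -0.52 to -0.62, and PLK1 with -0.35 to -0.53. These coefficients describe 20 embryos that share stage, depth and the scaling of each library.

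The wider M-phase machinery was described by 69 further genes, of which 63 were in the table and 47 were tested. From the 4- to the 8-cell stage 6 of the 47 fell and none rose after IVF, where 3.25% of all genes fell and 3.72% rose. After PA 2 fell and 3 rose, against 3.18% and 6.81% of all genes. From the 1-cell stage 8 fell and 1 rose after IVF, against 8.23% and 6.03% of all genes, and 2 fell and 2 rose after PA, against 6.21% and 7.58%. The list's median log2 difference was -0.90 after IVF and -0.28 after PA from the 1-cell stage, beside -0.77 and -0.58 over all tested genes. Under the median-ratio scaling the counts from the 1-cell stage turned to 8 higher and 2 lower after IVF and 14 higher and 1 lower after PA, and those from the 4-cell stage to 4 higher and 2 lower after IVF and 8 higher and 4 lower after PA.

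FBXO43 (EMI2), the APC/C inhibitor of the cytostatic factor, moved like the oocyte genes and fell by 6.34 (SE 0.97, limma adjusted p = 0.000203) from 1- to 8-cell IVF embryos, which held 46.3, 171 and 135 FPKM against 0.278. In PA embryos FBXO43 fell by 5.88 (SE 0.97, adjusted p = 0.000488), from 42.2, 86.3 and 64.1 to 0.0656 FPKM. CDC25C, a phosphatase that activates CDK1, fell by 5.29 (SE 1.01, adjusted p = 0.00152) after IVF, and the PA difference was -4.48 (SE 1.01, adjusted p = 0.0061). After IVF the meiotic cohesin subunit SMC1B fell by 5.71 (SE 0.91, adjusted p = 0.000309) and the difference of the checkpoint kinase TTK was -5.18 (SE 1.06, adjusted p = 0.00294). The others that fell after IVF were SGO2, a protector of cohesin, CDC25B, the polyadenylation factor CPEB1 and UBE2C, an E2 enzyme of the APC/C. CPEB1 was lost without any 1 of the 6 1-cell embryos (adjusted p = 0.0535 to 0.0913), UBE2C without any IVF 1-cell embryo (adjusted p = 0.0594 to 0.0777), and CDC25B without the repeated cells (adjusted p = 0.0506). Under the median-ratio scaling the calls from the 1-cell stage were lost for CDC25C (-3.25, adjusted p = 0.104, after IVF and -2.43, adjusted p = 0.259, after PA), TTK (adjusted p = 0.105), SGO2 (-3.10, adjusted p = 0.0711), CDC25B, CPEB1 and UBE2C, and kept for FBXO43 and SMC1B. From the 4-cell stage the PA falls of FBXO43 and CDC25C were lost without the repeated cells (adjusted p = 0.245 and 0.217). CDC25B from the 4-cell stage of IVF embryos was lost likewise (adjusted p = 0.108), and without any 1 of 8 embryos, among them IVF 4-cell embryos 1 and 2 (adjusted p = 0.0788 and 0.0604).

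CDC26, an APC/C subunit, rose by 5.43 (SE 0.72, limma adjusted p = 0.000593) from the 2- to the 4-cell stage after IVF, where 0.616% of all genes rose, and by 4.41 (SE 0.72, adjusted p = 0.00554) after PA, where 0.382% did. Both calls were lost with only the compared groups in the fit (limma adjusted p = 0.272 after IVF and 0.204 after PA). CDC26 reached 355 FPKM in the IVF and 541 FPKM in the PA 8-cell embryo, from 0.899 to 2.55 and 0.77 to 1.34 FPKM in 1-cell embryos. However, its row shares 2720 bases with SLC31A1 on the opposite strand, r over cells was 0.997, and the reads of both genes cannot be told apart. STAG2, a cohesin subunit, rose by 4.24 (SE 0.92, adjusted p = 0.00506) from the 4- to the 8-cell stage after PA, to 122 FPKM, and held 26.2 FPKM in the IVF 8-cell embryo. Its gene lies on the X chromosome. The paper sexed the IVF 8-cell embryo as male and all PA embryos as female, so sex and method cannot be told apart there. FBXO5 (EMI1), which inhibits the APC/C in interphase, rose after PA by 3.09 (SE 0.92, adjusted p = 0.0381), a call lost without PA 4-cell embryo 3 (adjusted p = 0.0655), IVF 1-cell embryo 2 or 3 (0.0534 and 0.0514), IVF 2-cell embryo 1 (0.0506) or PA 1-cell embryo 2 (0.0515). The FBXO5 call was also lost with nuclear genes rescaled, with a pseudocount of 0.1, with the embryo number fitted as a replicate block and with only the compared groups. The 8-cell embryos held 62.7 FPKM of FBXO5 after PA and 74.8 FPKM after IVF. UBE2C rose by 4.96 (SE 1.05, adjusted p = 0.00449) in the same step after PA, to 47.4 FPKM, and stood at 0.0338 FPKM in the IVF 8-cell embryo. Its interaction of method with this step was called at -6.51 (SE 1.49, adjusted p = 0.0224), and at -6.95 (adjusted p = 0.0142) without the repeated cells. With log2 values averaged over blastomeres it was -3.65 (adjusted p = 0.265), and the PA rise 2.64 (adjusted p = 0.104). The PA calls of CDC26, STAG2, FBXO5 and UBE2C that rest on 4-cell embryos held without the repeated cells, at 4.81 (adjusted p = 0.000584), 4.90 (adjusted p = 0.00849), 4.40 (adjusted p = 0.00849) and 5.40 (adjusted p = 0.00233), respectively.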

How the data were processed

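Pig (Sus scrofa) embryos were dissociated and single cells sequenced after Ansuper-seq amplification. The labels describe another extraction, Trizol with a TruSeq kit, and the paper's procedure was taken. The authors mapped reads to Sscrofa11.1 with HISAT2 (both also named in the submitters' processing notes), counted with HTSeq and deposited FPKM per gene and cell, with no replicates pooled. The strand used in counting, the annotation release and molecular identifiers are not given in the sources used here.

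Whole reads were recovered from the steps of the deposited FPKM in 14595 of 14692 expressed genes (99.3%, within 0.002 of a whole number), which gave reads per cell. As the unit is FPKM no count test was run. Embryo means, log2(FPKM + 1), were fitted with limma 3.58.1 (R 4.3.3) with a mean-variance trend over all 8 groups, on the 8116 genes that reached 1 FPKM in 3 or more cells, and p-values were adjusted by Benjamini-Hochberg over all of them. A gene was called at an adjusted p below 0.05 and at least 2-fold. Ratios were tested by exact permutation in Python 3.11.15 with scipy 1.17.1. Sequences were read from the Sscrofa11.1 genome with RefSeq models.

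The members and lists were chosen with earlier results of these data known. Named in the text were all 10 members, list genes called (at most 4 with the largest difference per comparison whose embryos do not overlap, and the rest of the called ones, named after their values were seen), the gene with the highest r to each member, and overlapping genes. Replicate numbers were embryo numbers within a group. Over 45 pairs of same-numbered embryos the median correlation of deviations was 0.0083, so they were not taken as pairs. Each limma comparison was recomputed under 11 alternatives and, where its groups still held an embryo, without each of 20 embryos in turn. Ratios were recomputed with other pseudocounts, with log2 values averaged over blastomeres, without the repeated cells and without each embryo. Correlations with the closest genes were recomputed only without the repeated cells. Correlations among members and differences between blastomeres were not recomputed. The 3-read limits cover counting error only. One upstream sequence is not reported here.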

Additional observations from a re-analysis of the deposited data

Results flagged for a closer look

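Among 40 groups of 4 to 10 cells, 1 for each member and each 2- or 4-cell group, 2 held a cell far from the others of its group, near the number that chance gives at 1 in 20. CCNB2 stood at 8.90 FPKM in PA 4-cell blastomere 2-1, against at most 0.308 FPKM in the other PA 4-cell blastomeres, and this cell is one of those that nearly repeat a PA 2-cell blastomere, where CCNB2 was at 8.80 FPKM. CDK1 stood at 5.31 FPKM in PA 2-cell blastomere 2-1, against at most 0.707 FPKM in the other PA 2-cell blastomeres. That is the 2-cell partner of the same pair.

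UBE2C differed between IVF and PA in the step from the 4- to the 8-cell stage by -6.51 on the log2(FPKM + 1) scale (SE 1.49, limma interaction term, adjusted p = 0.0224), and by -3.65 (adjusted p = 0.265) with log2 values averaged over blastomeres. The embryo means were 4.99, 0.584 and 1.91 FPKM at the IVF 4-cell and 0.0338 FPKM at the IVF 8-cell stage, and 1.52, 0.0424 and 0.418 FPKM at the PA 4-cell and 47.4 FPKM at the PA 8-cell stage. Each 8-cell value is 1 embryo, so the method and that embryo cannot be told apart.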

How the results depend on the processing

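With 1 embryo at each 8-cell stage, calls there rest on the spread pooled over all groups. With only the compared groups in the fit, 0 members were called from the 4- to the 8-cell stage after IVF and 0 after PA. The replicate block of the embryo number, which did not pair the embryos, gave 4 calls from the 1- to the 8-cell stage after IVF, in place of 5, with CCNB2 lost, and 5 after PA, in place of 4, and changed no other count of members. Averaging log2 values over blastomeres called 2 members from the 2- to the 4-cell stage after IVF (CCNB1 and PTTG1) and 1 between IVF and PA at the 4-cell stage (PTTG1). Without the repeated cells 1 member was called from the 4- to the 8-cell stage after PA and 1 from the 2- to the 4-cell stage. Under the median-ratio scaling 3 members were called from the 1- to the 8-cell stage after IVF, where 1615 of all genes were. From the 2- to the 4-cell stage after PA 1 was called (PTTG1 higher), where 477 genes were. Between the methods at the 4-cell stage 2 were called (CCNB1 and PTTG1), where 371 genes were. In the interaction of the last step 2 were called (CDC20 and AURKA), where 1100 genes were. Under the same scaling WEE2 from the 2- to the 4-cell stage of PA turned to 0.33 and CCNB1 from the 1- to the 8-cell stage of PA to 0.011. Leaving out each embryo gave 3 to 5 calls from the 1- to the 8-cell stage after IVF (3 without IVF 1-cell embryo 2 or 3) and 0 to 1 from the 2- to the 4-cell stage after IVF.

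The IVF ratio of CCNB1 to CCNB2 turned to 0.30 with a pseudocount of 0.1 and ranged from -0.44 to 0.28 over left-out embryos, and that of AURKA to AURKB turned to -0.19 with a pseudocount of 5 and ranged from -0.58 to 0.72. The PA ratio of WEE2 to CDK1 was -4.52 with a pseudocount of 0.1, past the threshold no longer, and ranged from -4.35 to -1.82 over left-out embryos, being -1.82 without the 8-cell embryo. With 3 later embryos the smallest adjusted p is 0.0714, so those tests could not pass. The cause of these changes was not tested. Some values rest on a few reads per cell, such as those of MOS and CCNB2 at the 8-cell stage, and the part that depth plays in them was not tested.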
